A study of Mus musculus with 6 samples.

Results

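Histones are acetylated, deacetylated, methylated and demethylated by families of enzymes named for their chemistry, and nucleosomes are moved or evicted by remodelling enzymes that burn ATP. The genes described here are the mouse histone deacetylases (HDAC, 8 genes), sirtuins (SIRT, 7), lysine acetyltransferases (KAT, 7), lysine demethylases (KDM, 15), SET-domain lysine methyltransferases (SETD, 11, with Setdb1 and Setdb2), protein arginine methyltransferases (PRMT, 8), chromodomain helicases (CHD, 9) and SWI/SNF-related genes (SMARC, 14). They were taken by symbol from a table of 19532 genes: 85 symbols fit the names, and the 79 with 100 or more counts over all wells are the members. The largest differences among them were between the primed cells and the other cultures: the acetyltransferase gene Kat6b was 4.64-fold lower and Smarcd3, a subunit gene of the BAF remodelling complex, 8.55-fold lower in primed_4d than in LIF_2i, while the methyltransferase gene Setd7 was 6.96-fold and the ISWI-type remodeller gene Smarca1 6.20-fold higher. The arginine methyltransferase gene Prmt8 stood apart in the rosette culture, at 6.49-fold its LIF_2i level.

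The cells were R1 and IB10, a pair of established mouse embryonic stem (ES) cell lines, and each line gave 1 library in each of 3 cultures, all in serum-free N2B27 medium with the cytokine LIF. LIF_2i added 3 µM CHIR99021, a GSK3 inhibitor that switches on WNT signalling, and 0.1 µM PD325901, a MEK inhibitor (R1 at passage 24, IB10 at passage 28). Rosette_LIM kept PD325901 at 0.1 µM and replaced CHIR99021 by 2 µM IWP2, which blocks WNT secretion; R1 had 6 passages in it (passage 28) and IB10 5 (passage 33). Primed_4d cells, at passages 24 and 28, received 12 ng/ml FGF2, 20 ng/ml human Activin A and 2 µM IWP2 over 4 days. LIF was thus present in every group, MEK was inhibited in LIF_2i and rosette_LIM but not in primed_4d, and rosette_LIM cells were older in passage than the other groups. Sorted single cells were counted with SORT-seq, a plate method that tags the 3' end of each captured transcript with a unique molecular identifier (UMI). The comparisons ask how the naive (LIF_2i), rosette-stage (rosette_LIM) and primed cultures differ.

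In ES cells these enzymes work largely in complexes. HDAC1 and HDAC2 are the catalytic subunits of NuRD, SIN3 and CoREST; CHD4 is the main remodelling ATPase of NuRD; and the ES cell form of the BAF complex is built on the ATPase SMARCA4 (BRG1) with SMARCC1 and SMARCD1. Several family members take turns between cell types, so that a complex or an activity can be kept while its paralogues are exchanged.

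Each of the 6 libraries had 188 wells and held between 4614580 UMIs (R1 primed_4d) and 7688723 UMIs (IB10 LIF_2i). R1 primed_4d was the shallowest library, with 84 of 188 wells under 6000 UMIs against 4 to 38 in the others, and 2 wells of R1 LIF_2i held over 300000 UMIs each. The summed level of 6 naive markers was 1425 to 1894 CPM (UMIs scaled to a common library total) in LIF_2i and rosette_LIM and 248 to 283 CPM in primed_4d, and that of 4 primed markers was 54.8 to 97.1 against 1120 to 1140 CPM. From LIF_2i to rosette_LIM, 2 of these 4 primed markers rose and 1 fell by call. Otx2 was at 1.72 (R1) and 3.85 CPM (IB10) in LIF_2i, 13.4 and 15.2 CPM in rosette_LIM, and 13.9 and 18.4 CPM in primed_4d. Dnmt3b was at 76.0 and 89.8 CPM, 32.5 and 56.3 CPM, and 862 and 823 CPM in the same order. The WNT targets Sp5 and Axin2 summed to 75.2 (R1) and 42.3 CPM (IB10) in LIF_2i and to 5.50 to 7.81 CPM elsewhere, and 6 pluripotency genes to 1845 to 2382 CPM in every library. That sum covers opposite moves: from LIF_2i to primed_4d, 2 of the 6 genes rose and 3 fell by call. Utf1 went from 245 (R1) and 274 CPM (IB10) in LIF_2i to 816 and 841 CPM in primed_4d. Nanog went from 29.8 and 39.8 CPM to 19.5 and 3.03 CPM. Of the marker lists of other cells, 5 feeder fibroblast genes summed to 3.32 to 11.4 CPM with Col3a1 at 0 throughout, 5 mesendoderm genes to 4.74 to 29.1 CPM, 6 trophectoderm genes to 29.8 to 69.5 CPM, and 4 genes of the 2-cell-like state to 29.1 CPM at most. The 5 neuroectoderm genes moved with the cultures: they summed to 87.4 (R1) and 78.4 CPM (IB10) in LIF_2i, 219 and 174 CPM in rosette_LIM, and 149.5 and 78.8 CPM in primed_4d. Against LIF_2i, 2 of the 5 were called higher in rosette_LIM, and 4 were called higher and 1, Tubb3, lower in primed_4d. The 6 primitive endoderm genes summed to 69.2 to 112 CPM in primed_4d and 237 to 375 CPM elsewhere, nearly all of it Sparc, with the defining genes Gata4, Gata6 and Sox17 each at 4.71 CPM or less in every library. The part of these lists in the results was not tested.

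All 79 members passed the filter on low counts. Their median level over the 6 libraries was 53.3 CPM, against 21.7 CPM for the 12098 genes tested, and together they took between 0.581% and 0.603% of a library's UMIs. Against LIF_2i, 5 members were called higher and 1 lower in rosette_LIM at an adjusted p under 0.05 (edgeR quasi-likelihood test with cell line as a block, Benjamini-Hochberg adjustment over all genes tested). That is 7.59% of the members, where 5.54% of all genes tested were called (3.19% higher and 2.35% lower). In primed_4d against LIF_2i, 14 members were called higher and 14 lower, 35.4% of the members against 37.9% of all genes (18.3% higher, 19.6% lower). In primed_4d against rosette_LIM, 17 were called higher and 14 lower, 39.2% against 36.1% (17.1% higher, 19% lower). The members' shares lay near those of genes at large. Their median log2 differences were −0.03, −0.03 and 0.06 in that order, against 0.00, −0.01 and 0.00 over all genes, and their median absolute log2 differences were 0.16, 0.31 and 0.33, against 0.21, 0.40 and 0.41. A called difference of at least 2-fold was found for 1, 12 and 11 members (1.27%, 15.2% and 13.9%), against 2.57%, 19.2% and 17.5% of all genes. The comparisons share libraries: each culture enters 2 of them.

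**Figure D1:**
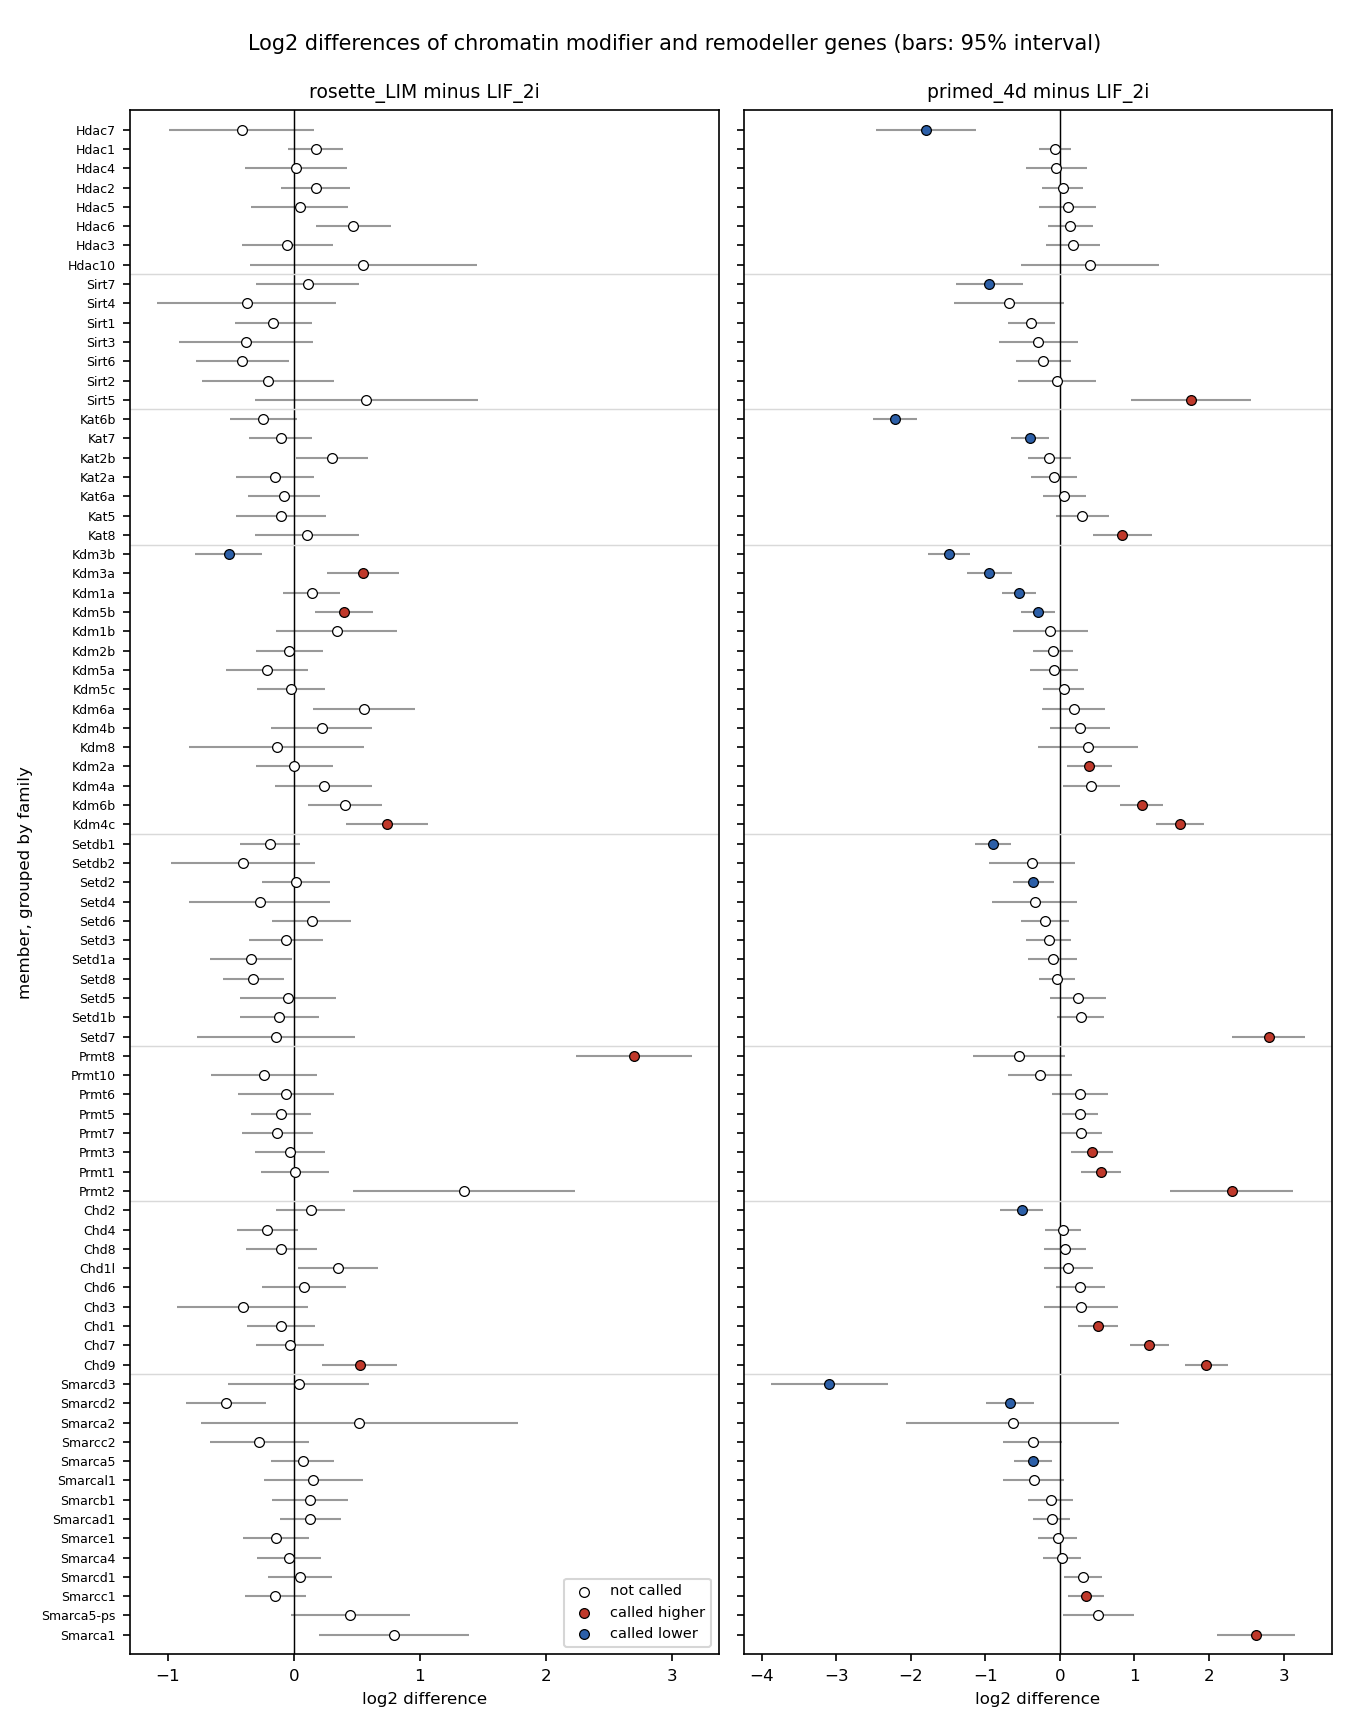
Log2 difference from LIF_2i (horizontal axis) of each of the 79 members, listed by family, in rosette_LIM (left) and primed_4d (right); points are edgeR estimates, bars their 95% intervals, and filled points passed an adjusted p of 0.05. The horizontal scales differ between the panels: 6 members are filled on the left and 28 on the right, with Setd7 and Smarca1 at the high end and Smarcd3 and Kat6b at the low end.

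Of the 79 members, 33 were called in at least 1 of the 3 comparisons and 46 in none. Primed_4d was called against both other cultures for 26 members, 14 of them higher and 12 lower than in both, and none was called in opposite directions. The share of all genes with these patterns was not counted. Both comparisons use the same primed_4d libraries, so the shared direction cannot be read as a trait of the members. The most frequent patterns were higher in primed_4d than in both others with no call between those (12 members: Chd1, Chd7, Kat8, Kdm2a, Kdm6b, Prmt1, Prmt2, Prmt3, Setd7, Sirt5, Smarca1 and Smarcc1) and its mirror image (9 members: Chd2, Hdac7, Kat6b, Kdm1a, Setd2, Setdb1, Sirt7, Smarca5 and Smarcd3). Of the 46 members with no call, 42 had 95% intervals that stayed within 2-fold in all 3 comparisons; the exceptions, Hdac10, Kdm8, Sirt4 and Smarca2, had few counts. The calls against LIF_2i leaned on single libraries. The culture comparisons were repeated under 15 other settings, among them each library left out in turn. Under every setting that gave a value, 1 of 6 calls was kept in rosette_LIM (Prmt8) and 14 of 28 in primed_4d against LIF_2i. In primed_4d against rosette_LIM, 18 of 31 were kept. Among the calls kept in primed_4d against LIF_2i, those of Hdac7, Prmt2 and Sirt5 had a value under 14 settings only. These 3 genes were not tested in wells thinned to an equal depth, so their calls were not put to that check.

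The 4 members with the largest log2 difference between any pair of cultures were Prmt8, Smarcd3, Setd7 and Smarca1, and the 250 bases upstream of their first-listed RefSeq start sites are shown because these genes carry the largest changes (GRCm38.p6, 5′ to 3′ on the gene's strand, the minus strand in all 4; capitals mark a GC box, GGGCGGG on either strand). They lie at chr6:127769156-127769405 (Prmt8), chr5:24602003-24602252 (Smarcd3), chr3:51560824-51561073 (Setd7) and chrX:47892614-47892863 (Smarca1). By GENCODE positions these minus-strand genes begin at 127769472 (Prmt8), 24624411 (Smarcd3), 51560879 (Setd7) and 47892974 (Smarca1). The Prmt8, Smarcd3 and Smarca1 sequences thus lie inside the annotated gene, and that of Smarcd3 belongs to a start far within it. Which starts these cells used was not tested.
Prmt8: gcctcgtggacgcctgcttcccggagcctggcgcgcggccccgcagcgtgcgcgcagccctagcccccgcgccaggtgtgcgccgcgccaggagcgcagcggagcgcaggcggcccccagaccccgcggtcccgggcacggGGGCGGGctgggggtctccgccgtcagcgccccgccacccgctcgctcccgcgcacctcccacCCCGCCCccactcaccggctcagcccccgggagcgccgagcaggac
Smarcd3: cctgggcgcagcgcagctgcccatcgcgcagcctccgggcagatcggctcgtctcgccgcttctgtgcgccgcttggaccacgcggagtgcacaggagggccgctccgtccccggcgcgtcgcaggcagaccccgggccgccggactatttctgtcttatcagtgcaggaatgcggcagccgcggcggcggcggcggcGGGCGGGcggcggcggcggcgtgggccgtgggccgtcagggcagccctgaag
Setd7: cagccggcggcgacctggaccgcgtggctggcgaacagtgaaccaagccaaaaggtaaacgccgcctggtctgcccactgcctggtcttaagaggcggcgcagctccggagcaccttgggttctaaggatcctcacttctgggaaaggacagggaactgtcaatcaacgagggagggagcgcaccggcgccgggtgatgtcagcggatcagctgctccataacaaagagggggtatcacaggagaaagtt
Smarca1: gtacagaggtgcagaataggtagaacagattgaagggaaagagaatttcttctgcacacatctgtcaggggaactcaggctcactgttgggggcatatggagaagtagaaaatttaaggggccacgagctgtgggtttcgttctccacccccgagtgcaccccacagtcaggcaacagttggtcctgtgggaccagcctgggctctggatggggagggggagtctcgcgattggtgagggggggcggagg
The Prmt8 sequence is 82.0% G and C with 37 CpG dinucleotides and 2 GC boxes, and that of Smarcd3 76.0% with 38 CpG and 1 GC box. Those of Setd7 (60.4%, 17 CpG) and Smarca1 (56.4%, 6 CpG) hold no GC box. None of the 4 holds an ESRRB half-site (AAGGTCA), a POU octamer (ATGCAAAT), an ETS core (CCGGAAG) or a TCF/LEF site (CTTTGAT) on either strand. Over all 27025 promoters of the table, these motifs were in 4.05%, 1.61%, 7.05% and 3.23%, and the GC box in 23.6%. A match is only a run of letters. The table has an entry for 63 of the 79 members, too few (under 80%) to set promoter composition of the members against all genes, so that comparison is void.

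Of the deacetylases, which remove acetyl groups from histones and other proteins, none of the 8 HDAC genes was called in rosette_LIM, and Hdac7 alone was called in primed_4d. Over all genes tested, 5.54% and 37.9% were called against LIF_2i in those cultures. Hdac7, a class IIa enzyme that mainly works as a corepressor scaffold, was at 10.2 (R1) and 15.3 CPM (IB10) in LIF_2i, 9.57 and 9.38 CPM in rosette_LIM, and 4.06 and 3.22 CPM in primed_4d. Both primed libraries lay below all others, and the fall was 3.48-fold from LIF_2i (log2 −1.80 ± 0.32, standard error; adjusted p = 0.000412 by edgeR) and 2.61-fold from rosette_LIM (adjusted p = 0.0045, but 0.0679 without IB10 primed_4d). Hdac1 and Hdac2, the class I enzymes of NuRD and SIN3, were the highest of the family, at 306 to 373 CPM and 203 to 257 CPM. Hdac1 differed by log2 0.17 ± 0.10 in rosette_LIM and −0.06 ± 0.10 in primed_4d from LIF_2i, and Hdac2 by 0.17 ± 0.13 and 0.04 ± 0.13; every 95% interval lay within 1.5-fold. Hdac3, the catalytic subunit of the NCOR complexes, stayed at 22.9 to 27.9 CPM. Hdac6, the cytoplasmic tubulin deacetylase, was at 66.6 and 68.4 CPM in rosette_LIM, above the 43.1 to 61.0 CPM of the other 4 libraries, but did not pass (log2 0.47, adjusted p = 0.0652 against LIF_2i).

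The sirtuins deacylate proteins with NAD as cofactor. Sirt5, the mitochondrial desuccinylase, and Sirt7, a nucleolar deacetylase, were called in opposite directions. Sirt5 was at 2.86 and 1.92 CPM in LIF_2i, 4.18 and 2.93 CPM in rosette_LIM, and 7.70 and 8.34 CPM in primed_4d, which rests on 15 to 44 UMIs a library. Its rise was 3.39-fold from LIF_2i (log2 1.76 ± 0.38, adjusted p = 0.00195) and 2.27-fold from rosette_LIM (adjusted p = 0.0223; 0.116 and 0.216 without the IB10 rosette_LIM or primed_4d library, and 0.170 with DESeq2). Sirt7 was at 20.3 and 17.8 CPM in LIF_2i, 21.8 and 19.3 CPM in rosette_LIM, and 9.41 and 10.2 CPM in primed_4d. It fell by 0.95 ± 0.21 on the log2 scale from LIF_2i (adjusted p = 0.00251, 0.0553 without R1 LIF_2i) and by 1.06 ± 0.21 from rosette_LIM (adjusted p = 0.00139). Sirt1, the best known nuclear sirtuin, was at 75.8 and 102 CPM in LIF_2i, 83.2 and 74.8 CPM in rosette_LIM and 64.4 and 71.8 CPM in primed_4d; the primed libraries were the lowest, but the difference from LIF_2i missed the threshold (log2 −0.38 ± 0.15, adjusted p = 0.0517). Sirt2, Sirt3, Sirt4 and Sirt6 were called in no comparison.

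Of the 7 lysine acetyltransferases, 1 was called higher and 2 lower in primed_4d against LIF_2i, and none in rosette_LIM. The shares of all genes tested were 18.3% higher and 19.6% lower in primed_4d, and 5.54% in rosette_LIM. Kat6b, a MYST enzyme that acetylates histone H3 with BRPF partners, was at 283 and 285 CPM in LIF_2i, the highest of the KAT genes there. It was at 244 and 236 CPM in rosette_LIM, and at 51.3 and 71.3 CPM in primed_4d. The primed libraries lay far below the other 4, with a log2 difference of −2.21 ± 0.14 from LIF_2i (4.64-fold, adjusted p = 1.97e-08) and of −1.97 ± 0.14 from rosette_LIM (3.93-fold, adjusted p = 7.63e-08). Its paralogue Kat6a, the other catalytic option of the same complexes, was at 57.5 and 49.1 CPM in LIF_2i, 55.3 and 45.9 CPM in rosette_LIM, and 63.1 and 48.5 CPM in primed_4d (log2 0.06 ± 0.14, 95% interval −0.23 to 0.35, primed_4d minus LIF_2i). A UMI marks a molecule, so counts of a pair can be set side by side with no correction for gene length: Kat6a made up 16.9% (R1) and 14.7% (IB10) of the pair's UMIs in LIF_2i and 55.1% (95% binomial interval 50.8 to 59.4) and 40.5% (36.7 to 44.4) in primed_4d. The intervals here and below cover counting error only.

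Kat8 (MOF), which acetylates histone H4, was at 15.6 and 16.2 CPM in LIF_2i, 18.1 and 16.2 CPM in rosette_LIM, and 31.4 and 25.6 CPM in primed_4d. It rose 1.78-fold from LIF_2i (log2 0.84 ± 0.18, adjusted p = 0.00243) and 1.66-fold from rosette_LIM (adjusted p = 0.00748). The first call was lost without R1 LIF_2i (log2 0.69) and the second without R1 primed_4d (log2 0.60). Both were lost in wells thinned to 6000 UMIs (adjusted p = 0.118 and 0.280), and the second also with DESeq2 (0.0767). Kat7 (HBO1) fell by 0.40 ± 0.12 on the log2 scale from LIF_2i to primed_4d (adjusted p = 0.0144), and this was lost without R1 LIF_2i or R1 primed_4d (adjusted p up to 0.336) and with DESeq2 (0.0564). Kat2b (PCAF) fell by 0.44 ± 0.14 from rosette_LIM to primed_4d (adjusted p = 0.0217, but 0.0619 to 0.280 when any 1 R1 library was left out and 0.108 with DESeq2). Kat2a (GCN5), at 77.6 to 103 CPM, and Kat5 (TIP60), at 26.5 to 39.1 CPM, were called in no comparison.

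**Figure D2:**
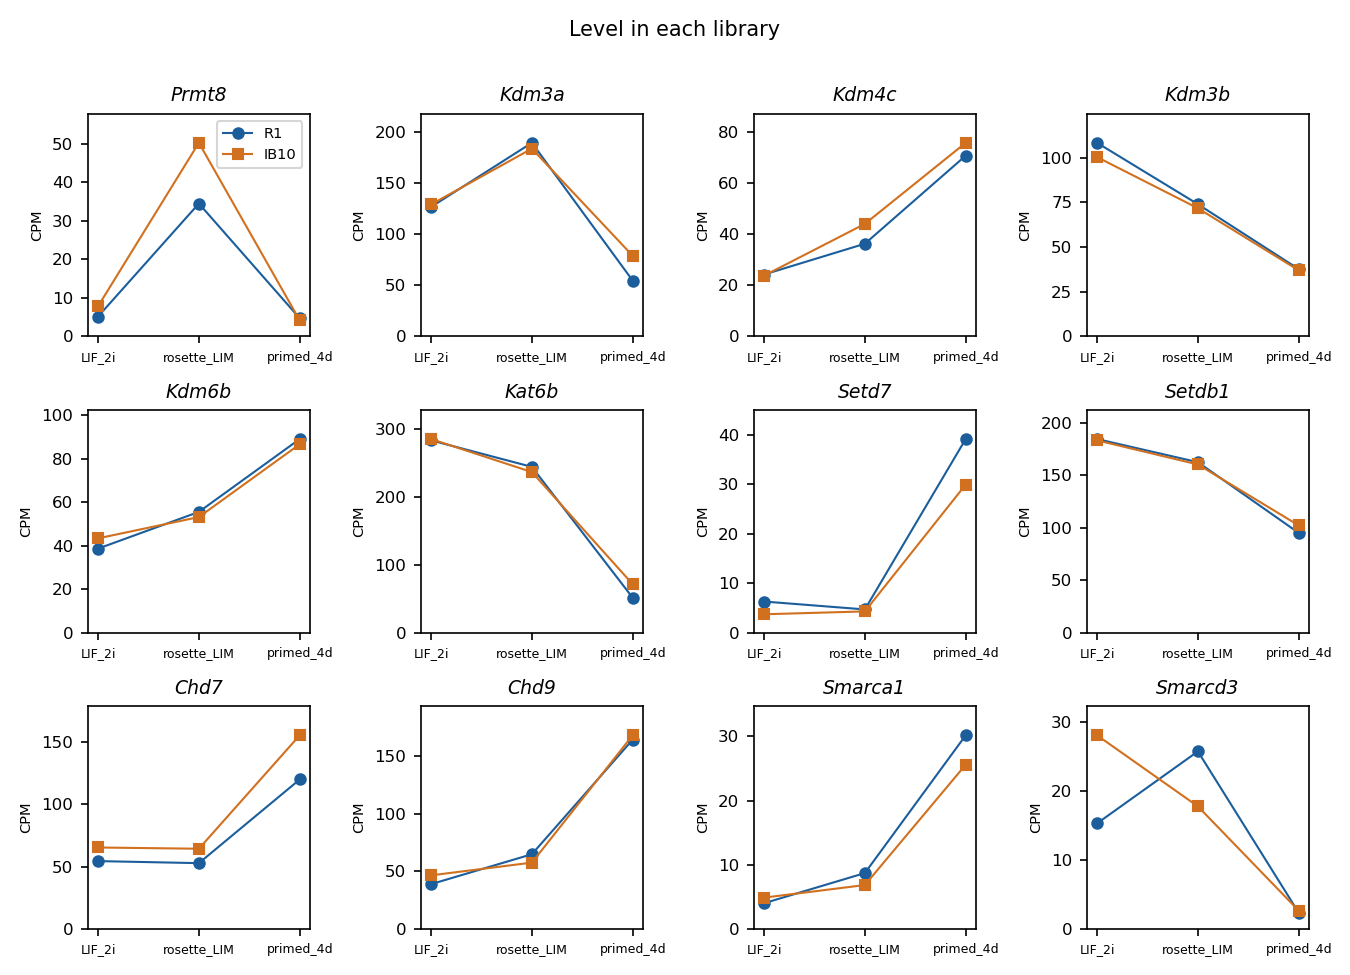
Level (vertical axis, CPM) of 12 members in the 3 cultures (horizontal axis) for R1 (circles) and IB10 (squares); each point is 1 library and lines join the libraries of a line. Prmt8 peaks in rosette_LIM at 34.5 and 50.2 CPM, Kat6b and Smarcd3 drop in primed_4d, and Setd7, Smarca1, Chd7 and Chd9 are highest there.

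Of the 15 lysine demethylases, the largest family here, 4 were called in rosette_LIM and 7 in primed_4d against LIF_2i, where 5.54% and 37.9% of all genes tested were called. The paralogues Kdm3a and Kdm3b, both erasers of methyl groups on lysine 9 of histone H3 (H3K9), moved apart in rosette_LIM and both fell in primed_4d. Kdm3a was at 127 and 129 CPM in LIF_2i, 189 and 184 CPM in rosette_LIM, and 54.6 and 78.8 CPM in primed_4d. It fell by 0.94 ± 0.14 on the log2 scale from LIF_2i to primed_4d (1.92-fold, adjusted p = 0.000112) and dropped by 1.49 ± 0.14 from rosette_LIM (2.81-fold, adjusted p = 1.73e-06). Kdm3b stepped down through the cultures, from 108 and 100.3 CPM in LIF_2i to 74.0 and 71.7 CPM in rosette_LIM and 37.7 and 37.0 CPM in primed_4d. It fell by 1.48 ± 0.13 on the log2 scale from LIF_2i to primed_4d (2.79-fold, adjusted p = 6.91e-07) and by 0.96 ± 0.13 from rosette_LIM (adjusted p = 6.35e-05). Kdm1a (LSD1), an H3K4 demethylase that works with HDAC1 in CoREST, was at 198 and 216 CPM in LIF_2i, 216 and 242 CPM in rosette_LIM, and 133 and 151 CPM in primed_4d. It fell by 0.55 ± 0.11 from LIF_2i (adjusted p = 0.0011) and by 0.69 ± 0.11 from rosette_LIM (adjusted p = 0.000191). The call against LIF_2i was lost without R1 LIF_2i (log2 −0.52) and in thinned wells (log2 −0.31, adjusted p = 0.173).

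Kdm4c, an eraser of H3K9 and H3K36 methylation, went the other way: 24.2 and 23.7 CPM in LIF_2i, 36.2 and 44.0 CPM in rosette_LIM, and 70.6 and 75.6 CPM in primed_4d, with no overlap between cultures. Primed_4d was 3.05-fold above LIF_2i (log2 1.61 ± 0.15, adjusted p = 1.05e-06) and 1.83-fold above rosette_LIM (adjusted p = 0.000308). Its relatives Kdm4a and Kdm4b, at 16.2 to 30.3 CPM, were called in no comparison. Kdm6b (JMJD3), which removes H3K27 methylation, the mark laid down by Polycomb, was at 38.6 and 43.4 CPM in LIF_2i, 55.5 and 53.1 CPM in rosette_LIM, and 89.0 and 86.6 CPM in primed_4d. It rose by 1.10 ± 0.13 on the log2 scale from LIF_2i (2.14-fold, adjusted p = 1.65e-05) and by 0.69 ± 0.13 from rosette_LIM (adjusted p = 0.00101). The X-linked Kdm6a (UTX), of the same activity, was at 20.3 and 19.6 CPM in LIF_2i, 27.8 and 31.1 CPM in rosette_LIM, and 18.0 and 27.7 CPM in primed_4d and was called nowhere (adjusted p = 0.109 in rosette_LIM). Its share of the pair's UMIs was 34.5% and 31.2% in LIF_2i and 16.8% and 24.2% in primed_4d.

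Kdm5b, an H3K4 demethylase and the most abundant KDM gene, was at 287 and 299 CPM in LIF_2i, 356 and 419 CPM in rosette_LIM, and 218 and 263 CPM in primed_4d. It fell by 0.69 ± 0.11 on the log2 scale from rosette_LIM to primed_4d (adjusted p = 0.000169). Its log2 difference of primed_4d from LIF_2i was −0.29 ± 0.11 (adjusted p = 0.0435). That call was lost when any 1 library of those cultures was left out (log2 −0.398 to −0.195). It was also lost without the line block (adjusted p = 0.116), with DESeq2 (0.129) and in thinned wells (log2 −0.07, adjusted p = 0.784). Kdm2a, an H3K36 demethylase, was at 61.3 to 65.6 CPM in the first 2 cultures and 72.9 and 93.6 CPM in primed_4d (log2 0.39 ± 0.14, adjusted p = 0.0399 against LIF_2i and 0.0471 against rosette_LIM). The R1 and IB10 primed libraries differed on it: the log2 difference from LIF_2i was 0.17 without IB10 primed_4d and 0.60 without R1 primed_4d. Neither call was kept with DESeq2 (adjusted p = 0.163 and 0.168), without the line block (0.0603 and 0.0672) or in thinned wells (0.613 and 0.0566). Kdm2b, Kdm5a, Kdm5c, Kdm1b and Kdm8 were called in no comparison.

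The 4 KDM calls in rosette_LIM against LIF_2i were modest, and none was kept under every other setting. Kdm4c was 1.67-fold higher (log2 0.74 ± 0.15, adjusted p = 0.0108), Kdm3a 1.46-fold higher (0.55 ± 0.13, adjusted p = 0.0267), Kdm5b 1.32-fold higher (0.40 ± 0.11, adjusted p = 0.0409) and Kdm3b 1.43-fold lower (−0.52 ± 0.12, adjusted p = 0.0231). All 4 were lost when either LIF_2i library was left out, and each also without 1 of the rosette_LIM libraries, with adjusted p from 0.0552 to 0.580. Without the line block, Kdm3b, Kdm3a and Kdm5b did not pass (adjusted p = 0.0578, 0.102 and 0.144), and with DESeq2 none of the 4 did (0.0577 to 0.131). In thinned wells Kdm4c, Kdm3b and Kdm3a did not pass (0.199, 0.465 and 0.0815). In each of these genes both rosette libraries lay on the same side of both LIF_2i libraries. The genes were chosen by their calls in these same libraries, so this adds no support. Members with no call, such as Chd1l, Hdac1 and Kat6b, also showed no overlap between these cultures.

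Of the SET-domain methyltransferases 3 of 11 were called in primed_4d against LIF_2i and none in rosette_LIM, where 37.9% and 5.54% of all genes tested were called. Setd7, which adds a single methyl group to histone H3 and to many other proteins, was at 6.29 and 3.72 CPM in LIF_2i, 4.70 and 4.30 CPM in rosette_LIM, and 39.1 and 29.9 CPM in primed_4d. Its level in primed_4d was above every other library, by log2 2.80 ± 0.23 from LIF_2i (6.96-fold, adjusted p = 3.32e-07) and 2.94 ± 0.25 from rosette_LIM (7.66-fold, adjusted p = 4.3e-07). Setdb1, the H3K9 methyltransferase that silences endogenous retroviruses in ES cells, was at 184 and 183 CPM in LIF_2i, 162 and 160.2 CPM in rosette_LIM, and 95 and 102 CPM in primed_4d. It fell by 0.90 ± 0.11 on the log2 scale from LIF_2i (1.86-fold, adjusted p = 2.14e-05) and by 0.71 ± 0.11 from rosette_LIM (adjusted p = 0.000221). Setd2, which trimethylates H3K36, was at 69.6 to 75.0 CPM in the first 2 cultures and 55.0 and 56.9 CPM in primed_4d (log2 −0.36 ± 0.13, adjusted p = 0.0417 against LIF_2i and 0.0387 against rosette_LIM). Those calls were lost when any 1 library of the pair of cultures compared was left out (adjusted p 0.0621 to 0.304) and with DESeq2 (0.209 and 0.201), and without the line block the call against LIF_2i was lost (0.0541). Setd1a and Setd1b, the COMPASS enzymes for H3K4, and Setd8 (now named Kmt5a), the H4K20 monomethyltransferase, were called in no comparison, nor were Setd3, Setd4, Setd5, Setd6 and Setdb2.

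Of the 8 arginine methyltransferases, 3 were called higher in primed_4d than in LIF_2i and 0 lower. Against rosette_LIM, 5 were called higher and 1, Prmt8, lower. Over all genes tested, 18.3% were called higher in primed_4d than in LIF_2i and 17.1% higher than in rosette_LIM. Prmt1 alone of those 5 was kept under every other setting. Prmt8, a membrane-bound paralogue of Prmt1 best known from neurons, was at 5.15 and 7.82 CPM in LIF_2i, 34.5 and 50.2 CPM in rosette_LIM, and 4.71 and 4.17 CPM in primed_4d. Both rosette libraries stood above all 4 others. The rise from LIF_2i was log2 2.70 ± 0.21 (6.49-fold, adjusted p = 5.73e-06) and the difference of primed_4d from rosette_LIM −3.24 ± 0.24 (9.48-fold, adjusted p = 1.6e-07); between primed_4d and LIF_2i it was not called (log2 −0.55 ± 0.29, adjusted p = 0.152). The neural gene Tubb3 was also highest in rosette_LIM, at 180.5 and 134 CPM, against 68.5 and 65.3 CPM in LIF_2i and 50.1 and 31.7 CPM in primed_4d. Pax6 was at 1.86 and 2.69 CPM in LIF_2i, 10.4 and 14.3 CPM in rosette_LIM, and 16.9 and 12.9 CPM in primed_4d. These 2 were the neuroectoderm markers called higher in rosette_LIM (adjusted p = 0.000125 and 0.000546). The other neuroectoderm markers, Sox1, Nes and Map2, were not highest there. In rosette_LIM they were at 10.1 and 7.62, 15.8 and 16.8, and 2.26 and 1.56 CPM. In primed_4d they were at 27.8 and 14.2, 49.0 and 16.9, and 5.78 and 3.22 CPM. The part of these markers in the Prmt8 result was not tested. Prmt1, the main source of asymmetric arginine dimethylation, was far more abundant at 150.2 to 286 CPM, so that even in rosette_LIM it made up 86.3% (95% interval 84.5 to 88.1) and 74.9% (72.2 to 77.6) of the pair's UMIs, against 95.8% to 98.4% in the other 4 libraries. Prmt1 itself rose from 183 and 178 CPM in LIF_2i and 218 and 150.2 CPM in rosette_LIM to 286 and 244 CPM in primed_4d. The log2 differences were 0.55 ± 0.12 (adjusted p = 0.0029, 0.165 without R1 LIF_2i) and 0.54 ± 0.13 (adjusted p = 0.00363; 0.36 on the log2 scale without IB10 rosette_LIM).

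Prmt2 was among the scarcest members, at 1.72 and 1.67 CPM in LIF_2i, 3.65 and 5.08 CPM in rosette_LIM, and 7.92 and 8.91 CPM in primed_4d (12 to 47 UMIs a library). It rose 4.93-fold from LIF_2i to primed_4d (log2 2.30 ± 0.38, adjusted p = 0.000271); the rosette_LIM value did not pass (log2 1.35, adjusted p = 0.0721). Its difference between primed_4d and rosette_LIM (adjusted p = 0.0464) was lost when any 1 of the 6 libraries was left out (0.0632 to 0.265), without the line block (0.0562) and with DESeq2 (0.282). Prmt3, which methylates a ribosomal protein, rose by log2 0.43 ± 0.13 from LIF_2i (adjusted p = 0.0165, 0.140 to 0.185 without either LIF_2i library or IB10 primed_4d) and by 0.46 ± 0.13 from rosette_LIM (adjusted p = 0.0133, 0.0828 and 0.111 without the IB10 rosette_LIM or primed_4d library). With DESeq2 neither Prmt3 call was kept (0.0934 and 0.0681), and in thinned wells the one against rosette_LIM was lost (0.0808). Prmt5, the main enzyme of symmetric dimethylation, was at 136 to 152 CPM in the first 2 cultures and 187 and 175 CPM in primed_4d. It passed against rosette_LIM alone (log2 0.37 ± 0.11, adjusted p = 0.018, 0.0542 to 0.150 without either LIF_2i library, R1 rosette_LIM or R1 primed_4d, and 0.0595 with DESeq2). Prmt7 likewise passed against rosette_LIM (log2 0.41 ± 0.13, adjusted p = 0.0229), with 0.0597 to 0.310 without any of the same 4 libraries, 0.0884 without the line block and 0.0814 with DESeq2. Prmt6 and Prmt10 (now named Prmt9) were called in no comparison.

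Of the 9 chromodomain helicases, 3 were called higher in primed_4d than in LIF_2i and 1, Chd2, lower, where 18.3% and 19.6% of all genes tested were called. Chd9 was at 38.9 and 46.6 CPM in LIF_2i, 64.9 and 57.6 CPM in rosette_LIM, and 165 and 168 CPM in primed_4d. The rise was 3.89-fold from LIF_2i (log2 1.96 ± 0.14, adjusted p = 5.85e-08) and 2.71-fold from rosette_LIM (1.44 ± 0.13, adjusted p = 1.28e-06). The step from LIF_2i to rosette_LIM was 0.52 ± 0.14 (adjusted p = 0.0411), and it was lost without either LIF_2i library or R1 rosette_LIM (adjusted p 0.169 to 0.603), without the line block (0.0886) and with DESeq2 (0.161). Its close relative Chd7, the gene mutated in CHARGE syndrome, was at 54.4 and 65.3 CPM in LIF_2i, 52.7 and 64.3 CPM in rosette_LIM, and 119.8 and 155 CPM in primed_4d. It rose by 1.20 ± 0.12 from LIF_2i (2.29-fold, adjusted p = 2.91e-06) and by 1.23 ± 0.13 from rosette_LIM (adjusted p = 3.16e-06), with no overlap of the primed libraries with the rest.

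Chd1, needed for the open chromatin of ES cells, was at 64.4 to 74.6 CPM in the first 2 cultures and at 105 and 106 CPM in primed_4d. Its log2 difference was 0.51 ± 0.12 from LIF_2i (adjusted p = 0.00491, 0.0731 and 0.125 without either LIF_2i library) and 0.61 ± 0.13 from rosette_LIM (adjusted p = 0.00169). Chd2 was at 61.9 to 70.1 CPM in the first 2 cultures and at 44.7 and 44.3 CPM in primed_4d. It fell by 0.65 ± 0.13 from rosette_LIM (adjusted p = 0.0017) and by 0.51 ± 0.13 from LIF_2i (adjusted p = 0.00726, 0.0552 to 0.129 without either LIF_2i library or IB10 primed_4d, and 0.0572 with DESeq2). Of the NuRD ATPases, Chd4 was at 238 to 304 CPM and called nowhere. The far scarcer Chd3, at 8.70 to 16.5 CPM, passed between primed_4d and rosette_LIM (log2 0.68 ± 0.25, adjusted p = 0.0431, but 0.0528 without the line block, 0.245 with DESeq2, and 0.0526 to 0.358 without any 1 library other than IB10 primed_4d). Chd3 made up 3.35% to 5.14% of the pair's UMIs in every library. Chd6, Chd8 and Chd1l were called in no comparison.

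Of the 14 SMARC genes, 2 were called higher and 3 lower in primed_4d against LIF_2i, and none in rosette_LIM. The shares of all genes tested were 18.3% higher and 19.6% lower in primed_4d, and 5.54% in rosette_LIM. Smarca4, the BAF ATPase of ES cells, was at 145 to 172 CPM and differed by log2 −0.04, 0.03 and 0.07 in the 3 comparisons, with every 95% interval within −0.29 to 0.33. Smarcb1 and Smarce1, shared core subunits, were at 71.8 to 104 and 78.5 to 93.3 CPM and were not called. Smarca2, the alternative ATPase, held 3 to 39 UMIs a library, and Smarca4 made up 95.5% to 99.6% of that pair. Smarcd3 was at 15.3 and 28.1 CPM in LIF_2i, 25.8 and 17.8 CPM in rosette_LIM, and 2.35 and 2.65 CPM in primed_4d (11 and 14 UMIs). The LIF_2i and rosette_LIM libraries overlapped and the primed libraries lay below them all, with log2 differences of −3.10 ± 0.37 from LIF_2i (8.55-fold, adjusted p = 1.22e-05) and −3.13 ± 0.37 from rosette_LIM (8.77-fold, adjusted p = 1.46e-05).

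The 3 Smarcd genes encode alternatives for a single place in the complex. Smarcd1 was at 106 and 129 CPM in LIF_2i, 106 and 137 CPM in rosette_LIM, and 141 and 148 CPM in primed_4d, and did not pass (log2 0.31 ± 0.12, adjusted p = 0.0518 against LIF_2i). Smarcd2 was at 53.2 and 46.7 CPM in LIF_2i, 33.6 and 35.2 CPM in rosette_LIM, and 33.4 and 29.6 CPM in primed_4d. It fell by 0.67 ± 0.15 on the log2 scale from LIF_2i to primed_4d (adjusted p = 0.00309). That call was lost without R1 LIF_2i (log2 −0.60) and in thinned wells (log2 −0.52, adjusted p = 0.187). The rosette_LIM value was close to the threshold (log2 −0.54 ± 0.15, adjusted p = 0.0503). Smarcd1 made up 87.4% and 82.1% of Smarcd1 plus Smarcd3 in LIF_2i and 98.4% and 98.2% in primed_4d, and 66.6% and 73.4% of Smarcd1 plus Smarcd2 in LIF_2i and 80.9% and 83.4% in primed_4d. Smarcc1, the scaffold subunit of the ES cell complex, rose in primed_4d by 0.49 ± 0.11 from rosette_LIM (adjusted p = 0.00363, 0.062 without IB10 primed_4d). Its rise from LIF_2i was 0.35 ± 0.11 (adjusted p = 0.0252). This call was lost without either LIF_2i library or IB10 primed_4d (log2 0.22 to 0.37). It was also lost without the line block (adjusted p = 0.101), with DESeq2 (0.0767) and in thinned wells (0.270). Its paralogue Smarcc2, at 21.7 to 42.1 CPM, was not called.

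Smarca1 (SNF2L) and Smarca5 (SNF2H) are the ATPases of the ISWI remodellers. Smarca1 was at 4.01 and 4.87 CPM in LIF_2i, 8.70 and 6.84 CPM in rosette_LIM, and 30.2 and 25.6 CPM in primed_4d. Its primed level was above all other libraries, by log2 2.63 ± 0.24 from LIF_2i (6.20-fold, adjusted p = 1.08e-06) and 1.84 ± 0.24 from rosette_LIM (3.57-fold, adjusted p = 3e-05). Smarca1 is on the X chromosome, whose 426 tested genes had a median log2 difference of 0.12 between primed_4d and LIF_2i. Smarca5 was at 178 and 142 CPM in LIF_2i, 207 and 135 CPM in rosette_LIM, and 152 and 101 CPM in primed_4d. Within each line primed_4d was the lowest, but the cultures overlapped across lines. The fall of 0.36 ± 0.12 from LIF_2i (adjusted p = 0.0253) depended on the line block (0.266 without it) and was lost without any 1 library of the pair (0.0511 to 0.393) and with DESeq2 (0.0957). That of 0.43 ± 0.12 from rosette_LIM (adjusted p = 0.0105) was 0.165 without the block and 0.0721 and 0.0841 without R1 rosette_LIM or IB10 primed_4d. The share of Smarca5 in the pair's UMIs was 95.2% to 97.8% in the LIF_2i and rosette_LIM libraries, and 83.4% (R1) and 79.9% (IB10) in primed_4d. Smarca5-ps, a transcribed processed pseudogene that shares sequence with Smarca5, was at 12.7 to 24.8 CPM; the sources used here do not say how reads were divided between them, so both are uncertain. Smarcad1 and Smarcal1, DNA repair relatives of the remodellers, were called in no comparison.

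**Figure D3:**
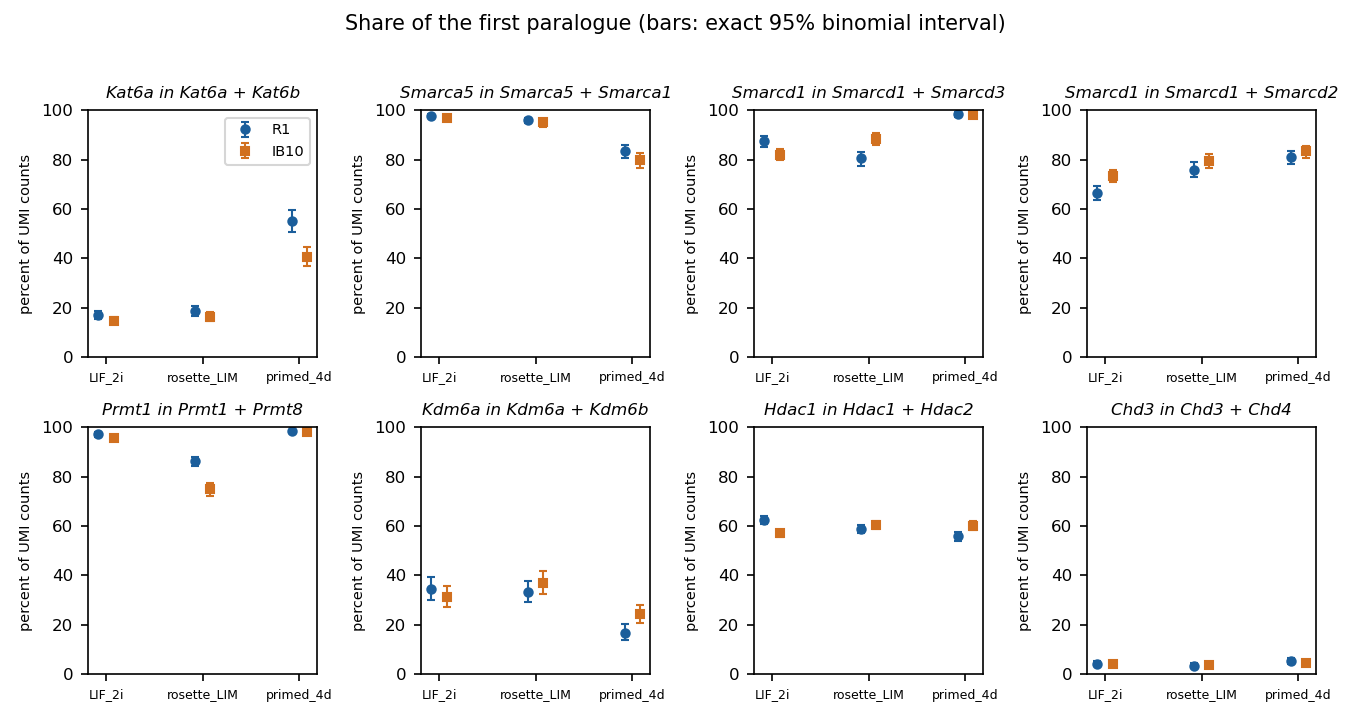
Share of the first-named gene in the UMIs of 8 paralogue pairs (vertical axis, percent) in the 3 cultures (horizontal axis) for R1 (circles) and IB10 (squares); bars are exact 95% binomial intervals, which cover counting error only. Kat6a goes from 14.7% to 18.5% in LIF_2i and rosette_LIM to 40.5% and 55.1% in primed_4d, Smarca5 loses share to Smarca1 there, and Prmt1 loses share to Prmt8 in rosette_LIM, while Hdac1 stays between 55.9% and 62.4%.

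A family sum averages its genes, so by arithmetic it moves less than the genes that changed most. The 14 SMARC genes summed to 1088 to 1120 CPM in all 6 libraries and all 79 members to 5738 to 5962 CPM. The KAT sum was 738 and 709 CPM in LIF_2i, 659 and 683 CPM in rosette_LIM and 466 and 471 CPM in primed_4d. Kat6b alone went from 283 and 285 CPM in LIF_2i to 51.3 and 71.3 CPM in primed_4d, and the family's median log2 difference was −0.07. The CHD sum was 679 and 740 CPM, 701 and 680.4 CPM, and 941 and 954 CPM, led by the rises of Chd9 and Chd7. The family's median log2 difference between primed_4d and LIF_2i was 0.27. The KDM sum was highest in rosette_LIM (1319 and 1385 CPM) and lower in LIF_2i (1150.0 and 1197 CPM) and primed_4d (983 and 1118 CPM). The PRMT sum was 534 to 607 CPM in the first 2 cultures and 768 and 670 CPM in primed_4d. HDAC (652 to 780.0 CPM), SETD (615 to 731 CPM) and SIRT sums (135 to 179 CPM) varied within 1.4-fold. CPM are shares of a library, so RNA per cell was not measured by them.

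**Figure D4:**
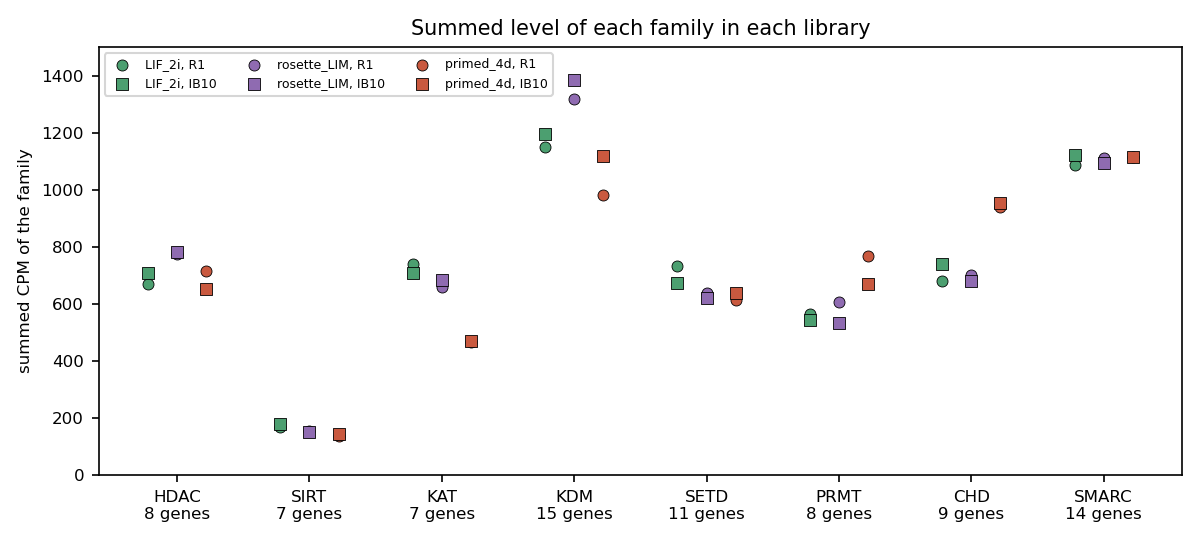
Summed level of each family (vertical axis, CPM) in each library, coloured by culture, with R1 as circles and IB10 as squares; each point is 1 library. The SMARC sum is flat at 1088 to 1120 CPM. The KAT sum falls to 466 and 471 CPM in primed_4d, led by Kat6b, and the CHD sum rises to 941 and 954 CPM there, led by Chd9 and Chd7.

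For Kat6b, Setd7, Prmt8 and Smarcd3, chosen for their large differences, the same UMIs are given here as shares of wells with a UMI. These shares are not separate support for the calls. Wells were thinned to 6000 UMIs each to remove the depth difference, which left 104 to 184 wells a library. Kat6b was found in 78.1% and 79.9% of thinned LIF_2i wells, 74.9% and 75.3% of those of rosette_LIM, and 25% and 35.5% of those of primed_4d (99.4% and 100%, 96.1% and 98.0%, and 76.0% and 73.4% before thinning). Setd7 was in 3.75% and 2.72%, 2.79% and 2.67%, and 26.9% and 15.4% of thinned wells in the same order (16.9% and 13.0%, 13.4% and 12.7%, 66.3% and 47.3% before thinning). Prmt8 was in 19.6% and 25.3% of thinned rosette_LIM wells and in 0.592% to 6.52% elsewhere (54.2% and 67.3% against 8.28% to 24.5% before thinning). At this depth most wells of the rosette culture showed no Prmt8 UMI. Smarcd3 was in 9.78% to 15.6% of thinned LIF_2i and rosette_LIM wells and in 1.92% and 0.592% of primed_4d wells (36.7% to 57.1% against 6.73% and 7.10% before thinning). In sums over wells, fewer cells with a transcript and less of it per cell cannot be told apart, and shares of a few percent are near the level of 1 UMI a well.

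Between the lines, averaged over the cultures, 1 member was called: Smarca5 was lower in IB10 than in R1 (log2 −0.50 ± 0.10, adjusted p = 0.0234), 1.27% of the members where 0.752% of all genes tested were called (0.24% higher and 0.512% lower). Each IB10 library was below the R1 library of the same culture (142 against 178, 135 against 207 and 101 against 152 CPM). The call was lost when any 1 LIF_2i or primed_4d library was left out (adjusted p 0.0625 to 0.245). Smarca5 lies on chromosome 8 (80698507 to 80739497, GRCm38), whose 664 tested genes had a median IB10 minus R1 log2 difference of −0.31, while the medians of the other chromosomes were −0.03 to 0.09. Of the 6 members on chromosome 8, Setd6 had a log2 difference of −0.53 (adjusted p = 0.0653), Prmt7 of −0.31, Kat6a of −0.29, Chd9 of 0.04 and Prmt10 of 0.05; the median of the 6 was −0.30, against 0.01 for the other 73 members. The chromosome 8 medians of the condition comparisons were −0.01, 0.01 and 0.03. Each culture holds 1 library of each line, so a constant line difference cancels there by design. Prmt8 had the largest positive value, at log2 0.44 ± 0.19 (adjusted p = 0.412).

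**Figure D5:**
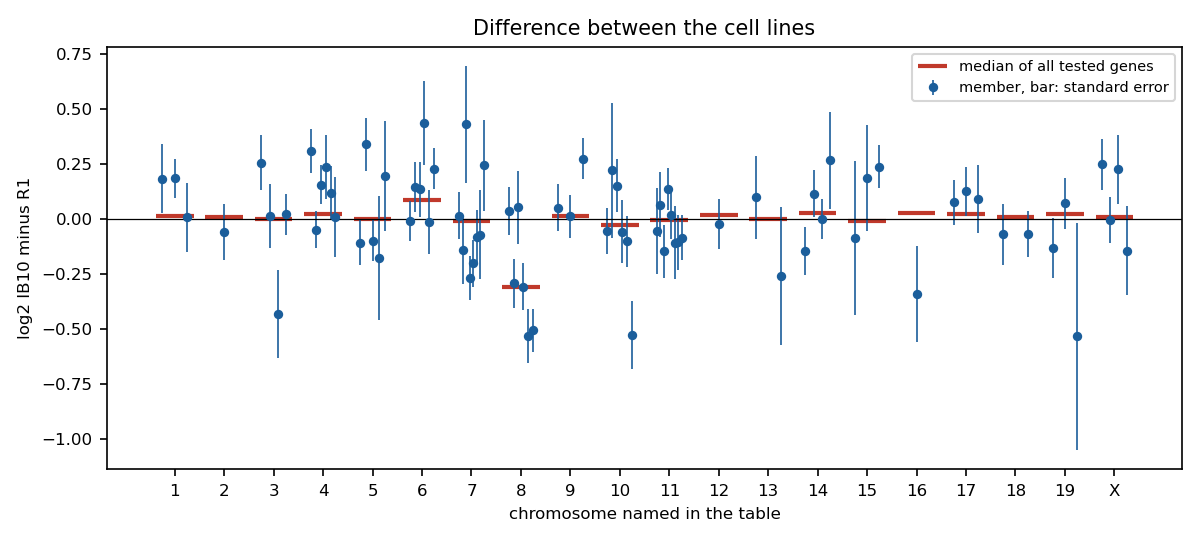
Log2 difference IB10 minus R1 (vertical axis) of the 79 members by chromosome (horizontal axis); points are edgeR estimates over the 3 cultures, bars standard errors, and red lines the median of all tested genes of a chromosome. Chromosome 8 has a median of −0.31, and 4 of its 6 members lie near or below it.

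The partners of these enzymes, in 7 lists that hold no member, gave calls of their own. Of 18 tested subunits of BAF and PBAF, 5 were called higher and 2 lower in primed_4d against LIF_2i and 2 higher in rosette_LIM. Over all genes tested, 37.9% and 5.54% were called in those comparisons. Bcl11a, a zinc-finger subunit known from neural and blood BAF complexes, was at 0.14 and 0.64 CPM in LIF_2i, 2.96 and 3.32 CPM in rosette_LIM and 27.6 and 49.5 CPM in primed_4d (adjusted p = 0.00412 and 8.28e-09 against LIF_2i), and its paralogue Bcl11b was at 0.57 to 1.57 CPM in the first 2 cultures and 18.4 and 13.3 CPM in primed_4d (adjusted p = 1.01e-06). Of 12 NuRD subunits, 4 were called higher and 4 lower in primed_4d, led by Cdk2ap1 (log2 0.97 ± 0.11), and 1 lower in rosette_LIM, the scaffold subunit Mta2 (−0.51 ± 0.11, adjusted p = 0.0174). Of 21 SIN3, CoREST and NCOR subunits, 2 were called higher and 5 lower in primed_4d, among them the CoREST subunit Phf21a (1.33 ± 0.15) and the SIN3 subunit Sap30 (−0.93 ± 0.13).

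Of 27 methyltransferases of histones H3 and H4 and their subunits, 3 were called higher and 6 lower in primed_4d against LIF_2i. Wdr5, a core COMPASS subunit, was at 357 and 365 CPM in LIF_2i, 322 and 306 CPM in rosette_LIM, and 152 and 157 CPM in primed_4d (log2 −1.23 ± 0.11, adjusted p = 5.77e-07). Suv39h1, which trimethylates H3K9 in heterochromatin, was at 10.6 to 14.7 CPM in the first 2 cultures and 54.1 and 42.5 CPM in primed_4d (1.92 ± 0.20, adjusted p = 4.15e-06), and Rbbp5 was lower (−1.16 ± 0.14). Of 21 other acetyltransferases and bromodomain readers, 8 were called lower and 0 higher, led by the adaptor Tada3 (−1.53 ± 0.13, adjusted p = 4.94e-07) and by Brd1 (−0.88 ± 0.14), a partner of the KAT6 and KAT7 enzymes. Of 25 other remodellers, 5 were called higher and 7 lower, and Baz2b fell from 61.8 and 70.3 CPM in LIF_2i to 12.6 and 12.1 CPM in primed_4d (−2.42 ± 0.17, adjusted p = 6.14e-08). Of 15 other demethylases and PRMT partners, 2 were called higher and 1 lower; Jmjd1c, a relative of Kdm3a and Kdm3b, rose (0.71 ± 0.15, adjusted p = 0.0016) where those fell. In this comparison 37.9% of all genes tested were called.

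Outside the members, 6 symbols fit the names with fewer than 100 counts. Hdac8 had 94 counts over all libraries, Hdac11 87, Chd5 82, Hdac9 46, Kdm5d 7 and Kdm4d 6. The members just inside were Smarca2 with 125 counts, Sirt5 with 154, Prmt2 with 156 and Hdac10 with 157. Hdac9 had 2 (R1) and 1 (IB10) counts in LIF_2i, 16 and 10 counts in rosette_LIM, and 11 and 6 counts in primed_4d.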

How the data were processed

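Per the file's values, the authors deposited expected counts, per gene and well, made from UMIs of 6 bases: each of the 1297 distinct values matches a whole UMI number after correction for molecules that share 1 of the 4096 possible UMIs (tolerance 2 decimals), and depth was not scaled. The submitters' processing notes name BWA and mm10/GRCm38; no version or counting annotation is stated. ERCC rows (91 of 19623, 1.75% of counts) were left out of library sizes and tests.

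Each library was summed over its 188 wells, since cells are not replicates, and rounded. edgeR 4.0.16 (R 4.3.3) tested 12098 genes (filterByExpr, minimum count 10; TMM factors 0.9868 to 1.02) with condition and cell line as terms over all 6 libraries, two-sided, adjusted by Benjamini-Hochberg. Line is the block because same-numbered libraries come from the same line; the line differences correlated by 0.152, 0.205 and 0.0903 between cultures, across genes. Levels are CPM with these factors; standard errors and 95% intervals derive from the test. Labels name no separate cultures, so p-values reflect only how much these libraries vary, which may be technical, and with 2 against 2 the smallest exact permutation p is 0.333, so none was run. DESeq2 1.42.0 and limma 3.58.1 (log2(CPM + 5)) served as alternatives, with other filters, scalings, well sets and single libraries left out. Positions are GENCODE M21, promoters RefSeq. The members and lists were chosen with earlier results of these data known. Given in full are the called members, at most 12 by smallest adjusted p in each comparison, and a list of 21 members; the other called members were added by name, and partner lists give at most 3 genes.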

Additional observations from a re-analysis of the deposited data

Results flagged for a closer look

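In 8 of 237 pairs of a member and a condition comparison, R1 and IB10 moved in opposite directions with counting intervals on opposite sides of 0. With 1 library per line and culture the difference between the lines was not tested, and none of the 8 was called when the lines were fitted together. In rosette_LIM against LIF_2i, Prmt1 differed by log2 0.25 in R1 and −0.24 in IB10, Smarca4 by −0.22 and 0.14, and Smarcd3 by 0.75 and −0.66. In primed_4d against LIF_2i, Chd4 differed by 0.20 in R1 and −0.13 in IB10, Hdac2 by 0.32 and −0.24, and Smarca2 by 1.13 and −2.98, where IB10 primed_4d held 3 Smarca2 UMIs. In primed_4d against rosette_LIM, Kat2a differed by 0.36 in R1 and −0.20 in IB10, and Prmt10 by −0.48 and 0.42.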

How the results depend on the processing

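The counts of called members in rosette_LIM against LIF_2i (5 higher, 1 lower) were the least stable: 1 higher and 0 lower with DESeq2, 2 and 0 without the line as replicate block, 2 and 0 in wells thinned to 6000 UMIs, 2 lower on library totals without TMM factors, 2 lower with no filter and 2 lower without the collision correction. Leaving out 1 library gave 1 to 6 higher and 0 to 2 lower. The counts over all genes fell with the members', from 386 higher and 284 lower to 166 and 106 with DESeq2, 162 and 119 without the block, 162 and 114 in thinned wells, 28 and 35 with the R1 library of LIF_2i left out and 88 and 61 with the IB10 one left out. In primed_4d against LIF_2i (14 and 14) the counts were 9 lower with DESeq2, 9 and 9 in thinned wells, and 8 to 18 higher and 7 to 15 lower with 1 library left out, the lowest values being without R1 LIF_2i; over all genes, 2212 higher and 2369 lower became 1273 and 1411 with DESeq2, 951 and 1057 in thinned wells and 1036 and 1281 without R1 LIF_2i. In primed_4d against rosette_LIM (17 and 14) they were 9 higher with DESeq2, 9 higher in thinned wells, and 12 to 14 higher and 12 to 16 lower with 1 library left out; over all genes, 2073 higher became 1168 with DESeq2 and 857 in thinned wells. Between the lines (0 and 1) there were 3 lower with no filter, 0 in thinned wells and 0 to 2 with 1 library left out. Thinning left fewer counts and tested 72 of the 79 members. It lost 4 of 6, 8 of 25 and 8 of 28 tested calls in the 3 culture comparisons, in the order above. In rosette_LIM against LIF_2i these were Kdm3a, Kdm3b, Kdm4c and Chd9. For primed_4d against LIF_2i they were Kat8, Kdm1a, Kdm2a, Kdm5b, Setd2, Smarca5, Smarcc1 and Smarcd2. For primed_4d against rosette_LIM they were Chd3, Kat2b, Kat8, Kdm2a, Prmt3, Prmt5, Prmt7 and Setd2. The cause of the other shifts was not tested. Of 66 called values, 33 were kept under every alternative that gave a value; 1 reversed, Setd2 in primed_4d against LIF_2i, at log2 0.058 in thinned wells (adjusted p = 0.903). The replicate block changed no call other than those given beside their results. The setting without the R1 LIF_2i wells over 300000 UMIs was chosen after seeing the data; it lost 1 of 6 and 1 of 31 calls. Paralogue shares moved beyond their counting interval in 38 of 78 values in thinned wells and in 0 with wells of 6000 or more UMIs, and family sums moved beyond the SD between the libraries of a culture in 19 and 0 of 48; without the collision correction, 13 of 48 family sums and 0 of 78 shares moved. Depth limits Smarca2, Sirt5, Prmt2, Hdac10, Sirt4 and Kdm8, with 125 to 225 counts each.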
